A study of Mus musculus with 12 samples.

Results

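The genes described here are those of the IL-12 family: the cytokine subunits Il12a, Il12b, Il23a, Il27 and Ebi3, the receptor chains Il12rb1 and Il12rb2, and the transcription factor Stat4. They were taken by gene symbol from an nCounter mouse immune panel, which counts barcoded probes on RNA without amplification, and make up 8 of its 750 endogenous genes (770 genes with the reference genes). All 8 were measured and tested in all 12 tumors, with no filter on low counts. Every tumor grew from A20 cells, a mouse B-cell lymphoma line, under the skin of a female Balb/c mouse aged 7 to 8 weeks and was injected 3 times, on alternate days. PBS went into 4 tumors, the stable emulsion SE into 4, and GLA-SE, the synthetic TLR4 agonist GLA at 10 µg in 50 µl of 2% SE (termed G100 in the study), into 4, and tumors were removed 2 h after the last injection. All 3 groups therefore carried the same lymphoma and the same number of injections, SE and GLA-SE shared the emulsion, and each tumor came from 1 mouse. A20 is 1 established line, so the groups describe 1 lymphoma in 1 mouse strain, and the RNA was that of whole tumors.

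IL-12 family cytokines are pairs of an alpha chain and a beta chain, and they share partners. The p40 chain (Il12b) forms IL-12 with p35 (Il12a) and IL-23 with p19 (Il23a), whereas EBI3 (Ebi3) forms IL-27 with p28 (Il27) and can also pair with p35. Dendritic cells and macrophages make these chains after Toll-like receptor signals, and T and NK cells carry the IL-12 receptor, made of Il12rb1 and Il12rb2, which signals through TYK2, JAK2 and STAT4 toward interferon gamma.

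Total counts ranged from 812522 to 1086462 in PBS tumors, from 810260 to 1268512 in SE tumors and from 1186487 to 1612415 in GLA-SE tumors. Values below are normalized counts, the deposited counts divided by each tumor's level of 17 stable reference genes. The geometric mean of those reference genes was 2184 to 2818 in PBS tumors, 1894 to 2135 in GLA-SE tumors and 1011 to 3077 in SE tumors, with the lowest value in SE replicate 4. A gene was called changed at an adjusted p under 0.05 in edgeR's quasi-likelihood test over the 750 genes, and the exact permutation test over the 70 ways to split 8 tumors, two-sided, had a smallest possible p of 0.0286.

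To show the DNA before the transcripts with the values below, the 250 bases before the annotated start were taken from RefSeq (GRCm38.p6, the C57BL/6J genome) for the gene with the largest log2 fold change, Il12b, and for 1 cytokine chain, 1 receptor chain and 1 signalling gene whose window held a searched motif. Promoter windows were matched for 5 of the 8 genes (7 windows), and Il23a, Il27 and Il12rb1 were not matched. Both strands were searched for TATAAA, for the AP-1 site TGANTCA, for the STAT site GAS (TTCNNNGAA), and for the consensus of the interferon element ISRE and that of kappaB, and capitals mark a match. Each is written 5′ to 3′ on the gene's strand.
Il12b (chr11:44399813-44400062, plus strand): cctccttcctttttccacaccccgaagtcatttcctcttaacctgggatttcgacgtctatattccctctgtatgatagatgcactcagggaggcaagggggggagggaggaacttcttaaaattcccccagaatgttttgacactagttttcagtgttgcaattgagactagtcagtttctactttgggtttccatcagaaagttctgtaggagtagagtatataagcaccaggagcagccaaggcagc
Ebi3 (chr17:55952373-55952622, plus strand): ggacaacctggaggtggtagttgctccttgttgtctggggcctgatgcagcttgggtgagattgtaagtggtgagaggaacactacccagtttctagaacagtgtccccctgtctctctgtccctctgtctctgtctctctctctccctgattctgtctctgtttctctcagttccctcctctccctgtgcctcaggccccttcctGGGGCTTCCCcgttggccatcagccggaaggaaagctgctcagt
Il12rb2 (chr6:67376189-67376438, minus strand): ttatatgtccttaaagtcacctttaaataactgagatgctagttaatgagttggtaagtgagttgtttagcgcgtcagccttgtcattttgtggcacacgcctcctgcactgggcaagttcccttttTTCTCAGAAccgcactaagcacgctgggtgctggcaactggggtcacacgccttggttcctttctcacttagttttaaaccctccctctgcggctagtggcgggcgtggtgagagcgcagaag
Stat4 (chr1:52007990-52008239, plus strand, the start nearer its 3′ end): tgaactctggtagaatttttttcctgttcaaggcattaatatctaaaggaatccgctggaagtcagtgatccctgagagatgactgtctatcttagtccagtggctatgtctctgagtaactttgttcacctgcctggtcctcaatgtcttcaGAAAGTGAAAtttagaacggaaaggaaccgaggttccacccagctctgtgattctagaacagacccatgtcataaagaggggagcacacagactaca
The Ebi3 window held a kappaB match 44 to 35 bases before the start, the Il12rb2 window a GAS match 123 to 115 bases before it, and the Stat4 window an ISRE match 97 to 88 bases before it. None of the 5 motifs matched in the Il12b window, in the other Stat4 window or in either Il12a window. Of 32851 mouse promoter windows of this length, 7.25% held the kappaB consensus, 7.02% GAS, 2.98% ISRE, 6.75% AP-1 and 12.4% TATAAA. A match is a description of the letters and was not tied to binding in these tumors.

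GLA-SE tumors had higher levels of most IL-12 family genes than PBS tumors. Ebi3, Il27, both receptor chains and Stat4 were higher in all 4 GLA-SE tumors than in any PBS tumor. Il12a and Il12b also passed the test, but on the strength of 1 tumor, and Il23a did not pass. In all, 7 of the 8 genes were called higher and 0 lower, where 68.3% of the 750 genes were called higher and 0.4% lower. The groups did not overlap for 5 of the 8, against 63.6% of the panel. The members' median log2 fold change was 1.41, and that of all 750 genes was 0.89, so much of the panel moved the same way. Without GLA-SE replicate 3, 5 of the 8 were called higher (Il27, Ebi3, Il12rb1, Il12rb2 and Stat4), where 64.4% of the panel was. In bulk tumor RNA, a change in the number of cells of a type and a change in RNA per cell cannot be told apart.

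**Figure D1:**
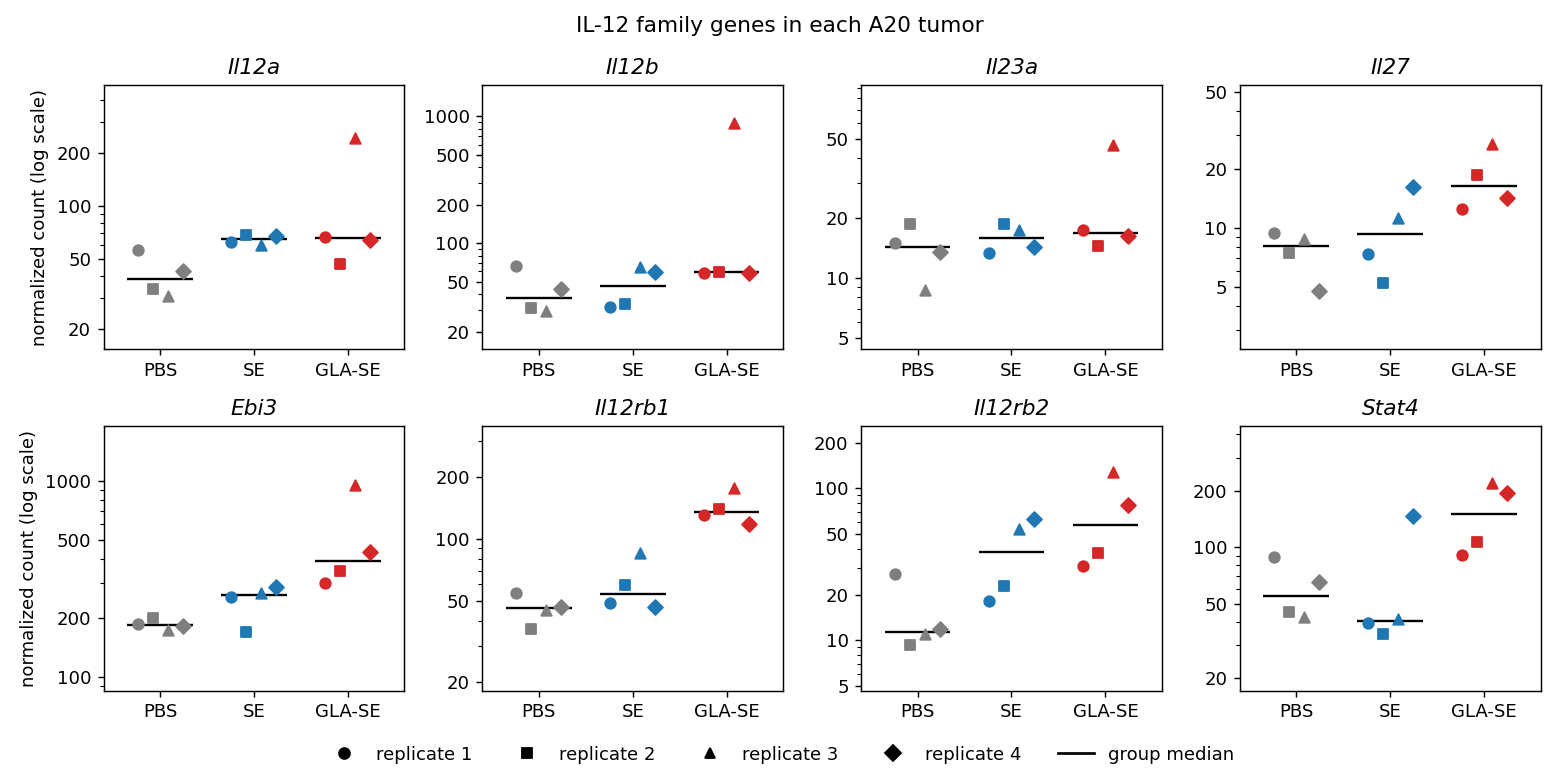
Normalized counts (log axis) of the 8 IL-12 family genes in each of 12 A20 tumors, by group (PBS, SE, GLA-SE; n = 4 each), with 1 point per tumor and a bar at each group median. GLA-SE replicate 3 stood at 883 for Il12b while the other GLA-SE tumors lay between 58.0 and 59.2, and for Il12rb1 all 4 GLA-SE tumors (118 to 177) lay above the SE and PBS tumors.

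Il12b encodes p40, the chain shared by IL-12 and IL-23. Its normalized count was 65.9, 30.9, 29.2 and 43.7 in the PBS tumors and 58.8, 59.2, 883 and 58.0 in the GLA-SE tumors. A single tumor, replicate 3, was 15.0 times the median of the other 3, and 1 PBS tumor exceeded those 3. The means were 42.4 ± 17.0 (SD, n = 4) and 265 ± 412 (SD, n = 4), and the log2 fold change of 2.64 (SE 1.00, adjusted p = 0.0407, edgeR) ranked at percentile 95.9 of the panel. Without GLA-SE replicate 3 it was 0.47 (adjusted p = 0.200, edgeR), and the exact permutation test over all 8 tumors gave p = 0.114.

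Il12a encodes p35, the IL-12 alpha chain. It measured 56.5, 33.7, 30.7 and 42.9 in PBS tumors and 66.5, 46.7, 242 and 64.1 in GLA-SE tumors. Again replicate 3 was highest, at 3.78 times the median of the other 3, and 1 GLA-SE tumor lay below the highest PBS tumor. The log2 fold change was 1.36 (SE 0.53, adjusted p = 0.0476, edgeR; exact permutation p = 0.0571) and became 0.53 (adjusted p = 0.111, edgeR) without that tumor. For both IL-12 chains, only 3 of the 8 fits that left out 1 tumor kept the call, namely those without GLA-SE replicate 1, 2 or 4. Leaving out any 1 PBS tumor also ended both calls, with the log2 fold changes about as large (1.24 to 1.55 for Il12a and 2.50 to 2.93 for Il12b).

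Il23a, the p19 chain of IL-23, was low throughout, with 8.76 to 18.7 in PBS tumors and 14.5 to 17.3 in 3 GLA-SE tumors, and 46.7 in replicate 3. Its deposited count was under 20, the threshold count named in the methods, in 9 of 12 tumors. The log2 fold change of 0.76 (SE 0.43, adjusted p = 0.142, edgeR) was not called.

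Ebi3 is the beta chain of IL-27. It measured 185, 198, 174 and 180 in the PBS tumors and 301, 347, 947 and 433 in the GLA-SE tumors. The groups were apart, the PBS tumors lay close together, and replicate 3 was 2.73 times the median of the other GLA-SE tumors. The means were 184 ± 10.3 and 507 ± 298 (SD, n = 4 each), with a log2 fold change of 1.46 (SE 0.35, adjusted p = 0.00654, edgeR; exact permutation p = 0.0286). Without replicate 3 it was 0.97 (adjusted p = 0.000973, edgeR), and the call held in 8 of 8 fits that left out 1 tumor. Ebi3 is thus the cytokine chain of this family, among those above the threshold count, whose call did not rest on replicate 3.

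Il27, the p28 alpha chain, ran from 4.77 to 9.42 in PBS tumors and from 12.5 to 27.2 in GLA-SE tumors. These counts were small, with deposited values of 5 to 25 and under 20 in 11 of 12 tumors. The log2 fold change was 1.24 (SE 0.32, adjusted p = 0.00810, edgeR; exact permutation p = 0.0286), and it stayed called in 8 of 8 fits that left out 1 tumor. A filter of 20 counts in 4 of the 8 tumors compared removed both Il27 and Il23a.

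The receptor chain Il12rb1, which the IL-12 and IL-23 receptors share, was the most even of the 8 genes among the GLA-SE tumors by its ratio of SD to mean. It measured 54.6, 36.5, 45.3 and 46.9 in PBS tumors and 130, 140, 177 and 118 in GLA-SE tumors. Every GLA-SE tumor was more than 2 times any PBS tumor, and replicate 3 was only 1.36 times the median of the other 3, where the median gene of the panel was 1.25 times. The means were 45.8 ± 7.45 and 141 ± 25.5 (SD, n = 4 each), and the log2 fold change was 1.62 (SE 0.21, adjusted p = 0.000411, edgeR; exact permutation p = 0.0286). It ranged only from 1.50 to 1.72 when each tumor was left out.

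Il12rb2, the chain that completes the IL-12 receptor and recruits STAT4, measured 27.3, 9.35, 11.0 and 11.9 in PBS tumors. In GLA-SE tumors it measured 30.8, 37.4, 128 and 77.3. The groups did not overlap, although PBS replicate 1 lay close below the lowest GLA-SE tumor, and the GLA-SE tumors spread widely (68.4 ± 44.8, SD, n = 4). The log2 fold change of 2.20 (SE 0.54, adjusted p = 0.00723, edgeR; exact permutation p = 0.0286) ranged from 1.71 to 2.65 when each tumor was left out.

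Stat4, the transcription factor that IL-12 activates, measured 88.5, 44.9, 42.4 and 65.1 in PBS tumors and 90.6, 106, 221 and 195 in GLA-SE tumors. The lowest GLA-SE tumor was barely above the highest PBS tumor. Both had a deposited count of 94, so the separation of these groups rested on the scaling. The means were 60.2 ± 21.5 and 153 ± 64.5 (SD, n = 4 each), the log2 fold change was 1.35 (SE 0.37, adjusted p = 0.0117, edgeR; exact permutation p = 0.0286), and the call held in 8 of 8 fits that left out 1 tumor.

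**Figure D2:**
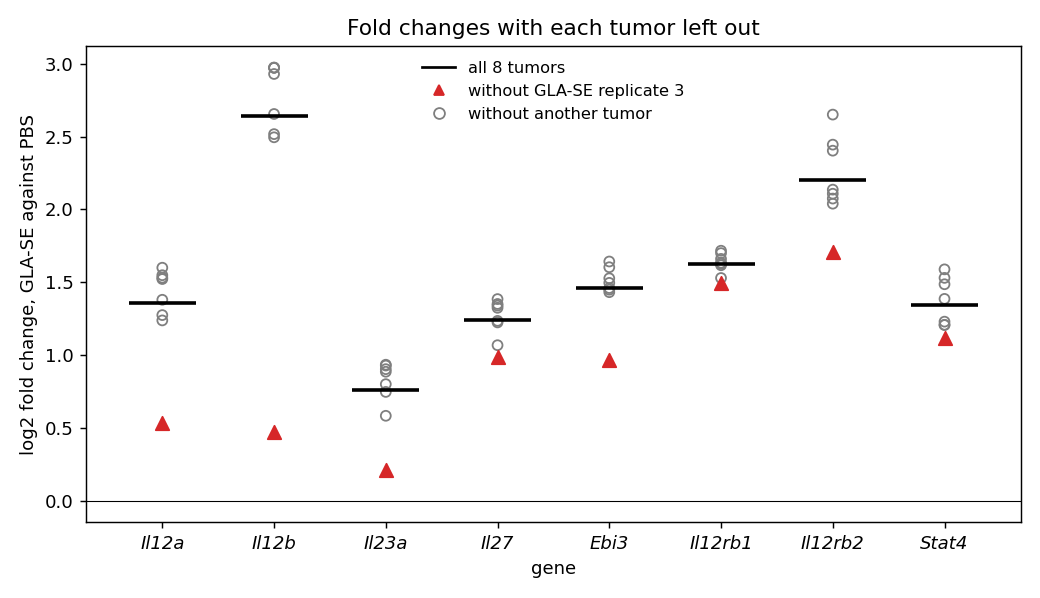
Log2 fold change of each IL-12 family gene in GLA-SE against PBS. The black line is the fit of all 8 tumors, the triangle the fit without GLA-SE replicate 3, and the circles the fits that lack another single tumor. Il12b (0.47 to 2.97) and Il12a (0.53 to 1.60) moved most toward 0 without GLA-SE replicate 3, whereas Il12rb1 (1.50 to 1.72) barely moved.

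The scale of the values decided how many of these genes were called. With the panel median as the scale in place of the reference genes, 0 of the 8 were called, and the panel itself split into 61 genes higher (8.13%) and 307 lower (40.9%), with a panel median log2 fold change of -0.40. The members' values then ran from -0.58 (Il23a) to 1.16 (Il12b), with Il12rb2 at 0.90 and Il12rb1 at 0.34, and with Il12a (-0.01), Il23a and Il27 (-0.07) turned negative. With TMM factors, 148 genes were higher and 168 lower, the panel median was -0.01, and the receptor chains Il12rb2 (1.29, adjusted p = 0.0464) and Il12rb1 (0.72, adjusted p = 0.00771, edgeR) were the 2 members still called. The receptor chains were thus also higher relative to the trend of the panel by TMM, and Ebi3, Il27 and Stat4 (0.50, 0.32 and 0.45) were not called on that scale.

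The emulsion alone gave no called change in these genes. In SE against PBS, edgeR called 0 of the 8, and 0% of the panel. At an unadjusted p under 0.05 it passed 1 of the 8, Il12rb2, and 140 genes of the panel (18.7%). DESeq2 called 60 genes on the same reference genes and 12 on its own size factors, and the methods' t-test called 1, and in none of these was a member among them. The members' median log2 fold change was 0.36 and the panel's was 0.53.

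Il12rb2 measured 18.1, 22.9, 53.7 and 63.1 in the SE tumors, so that 2 SE tumors were above every PBS tumor and 2 were not. Its log2 fold change was 1.38 (SE 0.54, unadjusted p = 0.0337, adjusted p = 0.243, edgeR; exact permutation p = 0.0857). Il12a measured 62.2, 68.7, 60.0 and 67.2 in the SE tumors, all above the PBS tumors and close together on this scale. It was the 1 member whose groups did not overlap (8.67% of the panel was all higher), with a log2 fold change of 0.66 (SE 0.29, adjusted p = 0.243, edgeR; exact permutation p = 0.0286). However, the deposited Il12a counts were 93, 66, 48 and 33 in SE replicates 1 to 4 and 36 to 60 in PBS tumors, so they overlapped. The separation and the evenness of Il12a thus rested on the scaling, and SE replicate 4 had the lowest reference genes. Il12b, by contrast, had normalized counts of 31.4, 33.3, 65.0 and 59.0, which fell within the PBS range of 29.2 to 65.9.

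The remaining genes overlapped between SE and PBS tumors. Ebi3 measured 256, 170, 269 and 287, above every PBS tumor in 3 of 4 SE tumors (log2 fold change 0.41, adjusted p = 0.281, edgeR). Il12rb1 measured 48.8, 59.4, 84.9 and 46.8, above every PBS tumor in 2 of 4 (0.39, adjusted p = 0.390, edgeR). Il23a ran from 13.4 to 18.7 and Il27 from 5.21 to 16.3 (log2 fold changes 0.19 and 0.33). Stat4 was below every PBS tumor in 3 SE tumors (39.5, 34.4 and 41.2) and at 147 in SE replicate 4. That tumor was 3.72 times the median of the other 3, where the median gene of the panel was 2.32 times, so that many genes were high in it. The Stat4 log2 fold change was 0.10 (adjusted p = 0.894, edgeR) with that tumor and -0.65 (adjusted p = 0.449, edgeR) without it. The T-cell markers (Cd3d, Cd3e, Cd3g, Cd5, Cd6, Cd4 and Cd8a) moved with it, since their summed level in SE replicates 1 to 4 was 738, 913, 1333 and 5185, and in the PBS tumors 876 to 2431. The summed markers of NK cells, of monocytes and macrophages, of neutrophils, of dendritic cells and of endothelium and fibroblasts were also highest among the SE tumors in replicate 4. The part of these cells in the Stat4 values was not tested.

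Set against the emulsion, normalized Ebi3 and Il12rb1 were higher in every GLA-SE tumor than in any SE tumor, but no member passed the adjusted test. EdgeR called 0 of the 8 where 16 genes of the panel (2.13%) were called, all higher, and at an unadjusted p under 0.05 it passed Il12b, Ebi3 and Il12rb1 and 133 genes (17.7%). Groups did not overlap for 2 of the 8, against 14.4% of the panel that was all higher. The members' median log2 fold change was 0.98 against 0.22 for the panel. For Ebi3 the log2 fold change was 1.05 (SE 0.41, adjusted p = 0.239, edgeR; exact permutation p = 0.0286). For Il12rb1 it was 1.23 (SE 0.34, adjusted p = 0.106, edgeR; exact permutation p = 0.0286). These 2 genes were the ones whose GLA-SE tumors all lay above both other groups on the normalized scale. However, deposited Ebi3 counts overlapped, at 383 in SE replicate 1 against 312 and 334 in GLA-SE replicates 1 and 2. The separation of Ebi3 from the SE tumors thus rested on the scaling. Deposited Il12rb1 counts did not overlap, at 23 to 73 in SE and 116 to 163 in GLA-SE tumors.

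Il12b had the largest difference, 2.49 (SE 1.04, adjusted p = 0.254, edgeR), which was 0.32 without GLA-SE replicate 3. Il12a was at 0.70 (adjusted p = 0.599, edgeR) and at -0.13 without that tumor, so its 3 other GLA-SE tumors did not exceed the SE tumors on average. Il27 was at 0.91, Il23a at 0.56 and Il12rb2 at 0.81, none called (adjusted p = 0.297, 0.579 and 0.579, edgeR). Stat4 was at 1.24 (SE 0.59, adjusted p = 0.328, edgeR; exact permutation p = 0.0857) with SE replicate 4 and at 1.99 (adjusted p = 0.0272, edgeR) without it. When SE replicate 4 was left out, 101 genes of the panel (13.5%) were called higher in place of 16. The comparisons with PBS share the same PBS tumors, and both comparisons of GLA-SE share its tumors, so their values are not independent of each other.

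**Figure D3:**
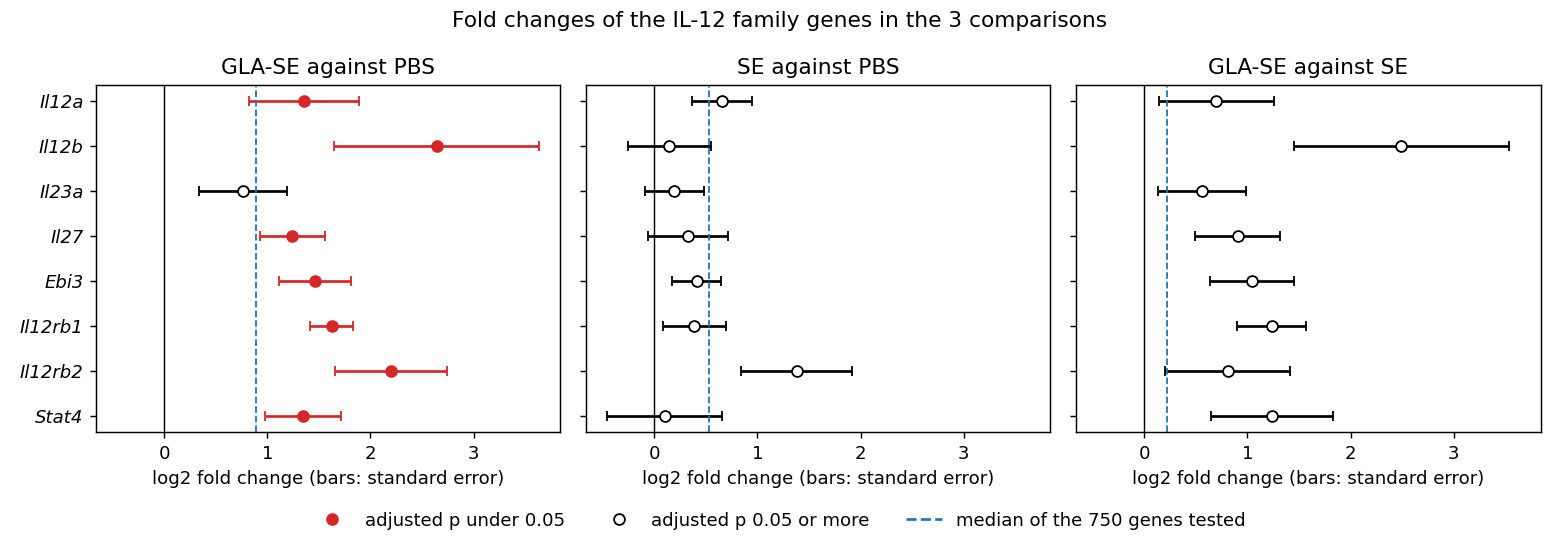
Log2 fold changes of the 8 IL-12 family genes (points, bars showing 1 standard error of the edgeR fit) in the 3 comparisons. Filled red points had an adjusted p under 0.05, open points did not, and the dashed line is the median of the 750 endogenous genes. In GLA-SE against PBS the members lay at 0.76 to 2.64 around a panel median of 0.89, and in SE against PBS at 0.10 to 1.38 around 0.53.

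Because the chains work in pairs, the log2 ratio of partner genes was computed within each tumor, from deposited counts with 1 added, where the scaling cancels. Probes differ in how well they capture their RNA, so only differences of a ratio between tumors can be read. None of 18 comparisons (6 pairs in 3 comparisons) had an exact permutation p under 0.05, the smallest being 0.0857 (adjusted over the 18 tests, 0.514), for Il12rb2 over Il12rb1 in SE against PBS. That ratio averaged -1.68 in PBS, -0.74 in SE and -1.25 in GLA-SE tumors.

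The IL-12 pair Il12a over Il12b lay between -0.22 and 0.12 in the 4 PBS tumors. It was 0.18, -0.33 and 0.14 in GLA-SE replicates 1, 2 and 4, but -1.86 in replicate 3, where p40 was further above the other tumors than p35. In SE tumors it was 0.97, 1.02, -0.11 and 0.18. The IL-23 pair Il23a over Il12b showed the same tumor apart, at -4.21 against -1.95 to -1.71 in the other GLA-SE tumors. For the IL-27 pair Il27 over Ebi3, the means were -4.49 ± 0.40 in PBS, -4.55 ± 0.44 in SE and -4.63 ± 0.41 in GLA-SE tumors (SD, n = 4 each), a difference of -0.14 for GLA-SE against PBS (exact permutation p = 0.686). The IL-27 ratio thus differed between groups by less than its spread within them. Deposited Il27 counts were under 20 in 11 of 12 tumors, which limits the precision of this ratio.

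**Figure D4:**
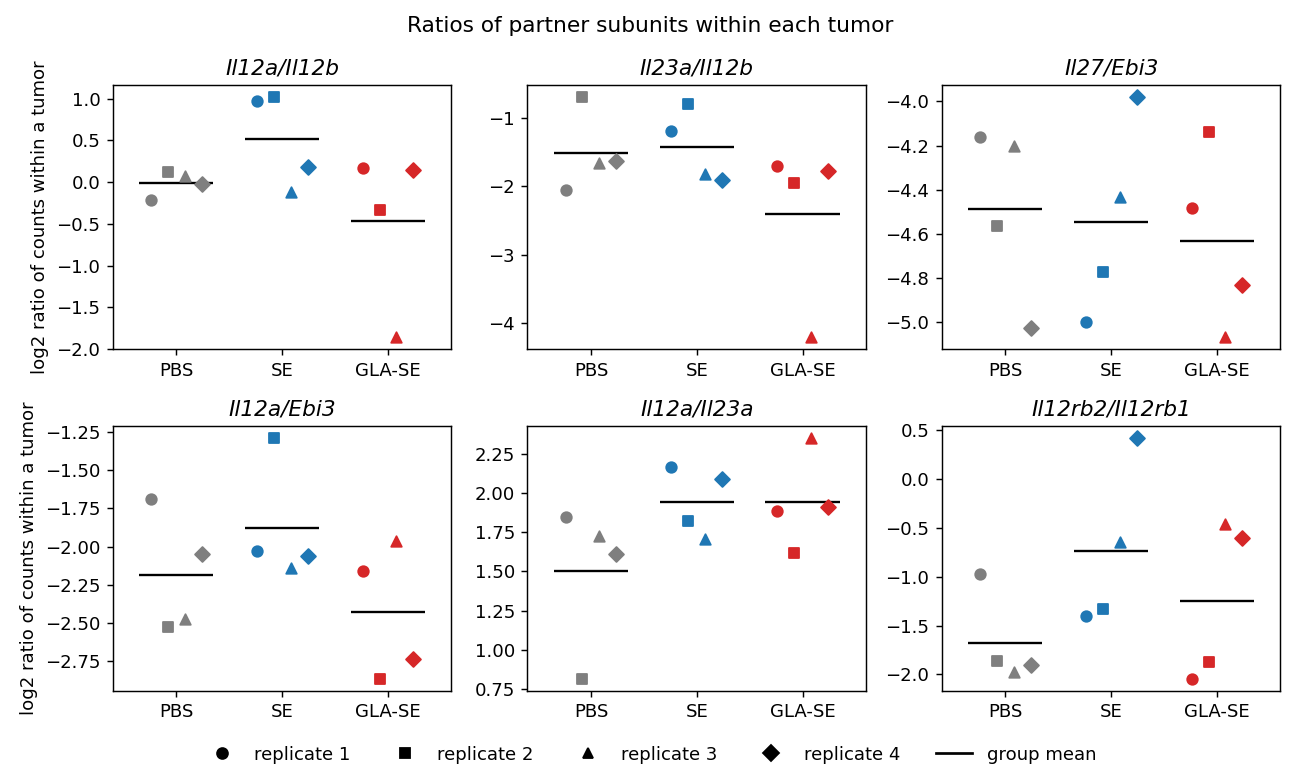
Log2 ratio of partner subunits within each tumor for 6 pairs, by group, with 1 point per tumor and a bar at each group mean. The groups overlapped for every pair, and GLA-SE replicate 3 stood apart for Il12a over Il12b (-1.86) and for Il23a over Il12b (-4.21).

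The partners in receptor signalling were also higher in GLA-SE against PBS. All 7 of 7 were called, where 68.3% of the panel was, with a median log2 fold change of 1.05, against the panel's 0.89. Jak2 and Tyk2, the kinases bound to the IL-12 receptor chains, were at 1.43 (adjusted p = 0.00344) and 0.78 (adjusted p = 0.00810, edgeR). Il6st, the gp130 chain of the IL-27 receptor, was at 1.27, and Stat3, a target of IL-27 and IL-23 signals, was at 0.94. Jak1 was at 0.79. Il23r, the specific chain of the IL-23 receptor, had mean counts of only 10.0 and 20.8, was at 1.05 (adjusted p = 0.0468, edgeR), and kept its call in 3 of 8 fits that left out 1 tumor, those without PBS replicate 1 or GLA-SE replicate 1 or 2. In SE against PBS 0 of 7 were called, and in GLA-SE against SE 1 of 7 was, where 2.13% of the panel was called.

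Genes that IL-12 and STAT4 are known to drive in T and NK cells were called higher in 8 of 9 cases in GLA-SE against PBS (68.3% of the panel), with a median log2 fold change of 1.22 against the panel's 0.89, and Fasl was not called. Granzyme B (Gzmb) averaged 144 in PBS tumors and 910 in GLA-SE tumors, which is 2.66 on the log2 scale (adjusted p = 0.000318, edgeR). Perforin (Prf1) was at 2.06 (adjusted p = 0.00211, edgeR). These were also the 2 genes of the 9 called in GLA-SE against SE, at 2.77 and 2.21 (adjusted p = 0.00773 and 0.0129, edgeR), where 2.13% of the panel was called. Gzmb kept that call in 8 of 8 fits that left out 1 tumor, and Prf1 in 5 of 8, losing it without GLA-SE replicate 2 or 4 or SE replicate 1 (adjusted p = 0.0531, 0.0551 and 0.0513, edgeR). In SE against PBS 0 of 9 were called.

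Of the 5 genes of the IL-23 and Th17 axis, 3 were called higher in GLA-SE against PBS (median 0.69), a smaller share than the panel's 68.3%, 0 in SE against PBS and 0 in GLA-SE against SE. Il22, a cytokine of Th17 cells, was at 0.83 (adjusted p = 0.0591, edgeR) and, like Il17a, was not called. All 5 of 5 IL-27 responsive genes were called higher in GLA-SE against PBS (median 1.56, panel 0.89) and 0 in each of the other comparisons. Among them Socs3, a feedback inhibitor of cytokine receptors, was at 3.03 (adjusted p = 0.00180, edgeR), and at 2.26 (adjusted p = 0.000329, edgeR) without GLA-SE replicate 3, where it measured 1871 against 326 to 656 in the other GLA-SE tumors. Prdm1, which encodes BLIMP-1, was at 2.01 (adjusted p = 0.000322, edgeR).

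Of 10 genes that act upstream of IL-12 family transcription, 9 were called higher in GLA-SE against PBS, where 68.3% of the panel was, and Rel was not called. Their median log2 fold change was 0.66, below the panel's 0.89. Irf1, an interferon-induced activator, was at 1.18 (adjusted p = 0.00177, edgeR). Cd40, the receptor through which T cells license dendritic cells, was at 0.93 (adjusted p = 0.0224, edgeR) and fell to 0.50 without GLA-SE replicate 3, which measured 1645 against 609 to 741 in the other GLA-SE tumors. Its call held without that tumor (adjusted p = 0.00516, edgeR) and in 5 of 8 such fits, and was lost without PBS replicate 1, 2 or 3 (adjusted p = 0.0504, 0.0508 and 0.0541, edgeR). In SE against PBS 0 of 10 were called. In GLA-SE against SE only Irf1 was called (1.01, adjusted p = 0.0333, edgeR), where 2.13% of the panel was. That Irf1 call held in 3 of 8 fits that left out 1 tumor, those without GLA-SE replicate 1 or 3 or SE replicate 4. With panel median scaling or a block by replicate number, 0 genes of the panel were called in GLA-SE against SE, Gzmb, Prf1 and Irf1 included. No list was tested as a set.

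Markers of the cells that make and receive these cytokines also moved with the groups. B-cell markers, which check the lymphoma label, were present in all tumors. In GLA-SE against PBS 2 of 7 were called lower and 0 higher, where 0.4% of the panel was called lower and 68.3% higher. Of the markers of monocytes and macrophages, 6 of 6 were called higher (68.3% of the panel), and their summed level was 28494 to 36205 in PBS, 23717 to 103462 in SE and 80693 to 119763 in GLA-SE tumors. Most of these sums was Lyz2, at 26330 to 33447 in PBS, 21773 to 89955 in SE and 73399 to 104029 in GLA-SE tumors. Of 5 dendritic-cell markers 2 were called higher, Itgax and Ccr7, a smaller share than the panel's 68.3%. The dendritic sum was 790 to 1094 in PBS, 1008 to 1690 in SE and 1484 to 5261 in GLA-SE tumors, with the highest value in GLA-SE replicate 3, where Ccr7, which lymphocytes also express, made up 4063 of it. The same tumor had the highest sum of neutrophil markers, 8806, of which S100a8 made up 7682. The PBS tumors had sums of 163 to 177, the SE tumors 125 to 1052 and the GLA-SE tumors from 766. GLA-SE replicate 3 is the tumor with the highest Il12a, Il12b, Il23a, Il27, Ebi3, Il12rb1, Il12rb2 and Stat4.

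The markers of NK cells, which carry the IL-12 receptor, were called higher in 3 of 4 cases, where 68.3% of the panel was. Klrb1c was not called, at a log2 fold change of -0.27. The NK sum was 212 to 506 in PBS, 224 to 682 in SE and 744 to 864 in GLA-SE tumors. T-cell markers were called higher in 4 of 7 cases, a smaller share than the panel's 68.3%, with sums of 876 to 2431 in PBS, 738 to 5185 in SE and 2446 to 3434 in GLA-SE tumors. Endothelial and fibroblast markers were called higher in 5 of 5 cases (68.3% of the panel). SE replicate 4 held by far the highest sum, 118919, where the other SE tumors began at 3254. Col3a1 made up 91073 of the sum in SE replicate 4. No marker was at 0 in any tumor. The part of these cells in the values of Il12rb1, Il12rb2, Stat4 and the cytokine chains was not tested.

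Genes whose pattern over the 12 tumors was among the most like that of a member were found by the root mean square difference of centred log2(normalized count + 1), as a description. For Ebi3 these were Nfkbia (0.20) and Sbno2 (0.21), and for Il12a Cd69 (0.31) and Nfkbia (0.31). For Il12b they were Lif (0.36) and Tnfsf15 (0.38), and for Il23a Cd40 (0.29). Il12rb1 was close to Cybb (0.25), and Il12rb2 to Osm (0.39) and Ccl3 (0.40). For Stat4 they were Klrg1 (0.30), a receptor of NK and T cells, and Sh2d1a (0.34), their adaptor for SLAM receptors. Il27 was left out because no group mean reached 20. A smaller number means a closer pattern, and the same tumors and reference genes entered every value.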

How the data were processed

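Gene expression was measured in 12 A20 tumors with the nCounter mouse PanCancer Immune panel. The authors deposited 1 table of counts per gene and tumor. nSolver normalization is described in the methods. However, the table holds whole numbers, and neither the totals nor the reference genes match from tumor to tumor, so no normalization was assumed. The 8 genes and all gene lists were chosen with earlier results of these data known. Groups were taken from the sample labels, with 4 mice per group.

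The geNorm procedure kept 17 of 20 reference genes over all 12 tumors, and counts were scaled to their geometric mean. Pairs of groups were compared over 750 genes, without a filter or covariates, in edgeR 4.0.16 (glmQLFit, R 4.3.3) with Benjamini-Hochberg adjustment and a threshold of 0.05. Exact two-sided permutation tests used 70 assignments and log2(normalized count + 1). The fit was tested on simulated data. Alternatives were other reference genes, scalings, filters, pseudocounts, tests (limma 3.58.1, DESeq2 1.42.0, Student's t-test), all 12 tumors in one fit, a block by replicate number, and each tumor left out. The setting without both GLA-SE replicate 3 and SE replicate 4 was chosen after seeing the data.

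All 8 genes were named, the signalling partners, and from each other list the 2 genes with the largest log2 fold change in GLA-SE against PBS and a group mean of at least 20. Some genes that this rule picks are left out of the text. Fasl, Il17a, Rel, Itgax, Ccr7 and Klrb1c fall outside this rule and were named after their values were seen. Precision was limited by the 4 tumors per group and, for Il23a and Il27, by deposited counts under 20 in 9 and 11 of 12 tumors. Plots used matplotlib 3.10.9 (Python 3.11.15).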

Additional observations from a re-analysis of the deposited data

Results flagged for a closer look

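In 8 of the 42 sets of 4 tumors examined (8 genes and 6 ratios in 3 groups), 1 tumor lay far from the other 3, and about 1 in 20 sets is expected to by chance. GLA-SE replicate 3 was apart for Il12a (242, others 46.7 to 66.5), Il12b (883, others 58.0 to 59.2) and Il23a (46.7, others 14.5 to 17.3), and for the log2 ratio of Il23a to Il12b (-4.21, others -1.95 to -1.71). PBS replicate 1 was apart for Il12rb2 (27.3, others 9.35 to 11.9) and for the log2 ratio of Il12rb2 to Il12rb1 (-0.98, others -1.98 to -1.86). SE replicate 4 was apart for Stat4 (147, others 34.4 to 41.2), 3.72 times the median of the others in a tumor where the median gene of the panel was 2.32 times, and SE replicate 2 for the log2 ratio of Il12a to Ebi3 (-1.29, others -2.14 to -2.03).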

How the results depend on the processing

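In GLA-SE against PBS, the 7 called genes became 0 with panel median scaling and 2 with TMM or DESeq2's own size factors, and 5 to 7 when 1 tumor was left out. The 515 calls over the panel became 316 with TMM and 253 with all 12 tumors in one fit, and 442 to 503 with 1 tumor left out. Negative log2 fold changes appeared with panel median scaling for Il12a (-0.012), Il23a (-0.58) and Il27 (-0.065), and for Il23a with TMM (-0.18) and DESeq2's size factors (-0.13). In SE against PBS, the 0 calls over the panel became 60 and 12 with DESeq2 (reference genes, own size factors) and 1 with the methods' t-test, none of them a member. With panel median scaling, TMM and no rescaling, respectively, log2 fold changes there were -0.35, -0.33 and -0.31 for Il12b, -0.17, -0.18 and -0.14 for Il23a, -0.24, -0.17 and -0.12 for Il27, and -0.61, -0.53 and -0.52 for Stat4, and Ebi3 was at -0.026 and -0.033 with the first 2. DESeq2's size factors gave -0.29 for Il12b and -0.50 for Stat4, limma gave -0.10 (pseudocount 1) and -0.069 (pseudocount 10) for Stat4, and the t-test -0.10. With 1 tumor left out, Il12b ran from -0.054 to 0.44 and Stat4 from -0.65 to 0.35. In GLA-SE against SE, the 16 calls became 0 with panel median scaling, 3 with TMM, 89 with no rescaling, 70 with all 12 tumors, 110 and 80 with DESeq2 and 4 to 102 with 1 tumor left out, and 68 without both GLA-SE replicate 3 and SE replicate 4, where Stat4 was the 1 member called. Members called were 0 to 1 with 1 tumor left out, and 1 with no rescaling (Stat4), all 12 tumors or DESeq2 on the reference genes (Il12rb1 in both). Il12a was at -0.37 with panel median scaling, from -0.13 to 0.94 with 1 tumor left out and at -0.11 without both tumors, and Il23a was at -0.43, at -0.061 with DESeq2's size factors, from 0.0078 to 0.74 with 1 tumor left out and at -0.031 without both. Without both tumors Stat4 was at -0.65 in SE against PBS. The cause of these shifts was not tested.

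Replicate numbers are only names here. Deviations of same-numbered tumors correlated at -0.25 to 0.18, and not every tumor was nearest its own number. With the replicate number as a block, 5 members (Il12a and Il12b lost) and 440 genes were called in GLA-SE against PBS, 0 members and 0 genes in SE against PBS, where Stat4 was at -0.11, and 0 members and 0 genes in GLA-SE against SE.

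Of the ratios, Il12a to Il23a in GLA-SE against SE was at 0.071 with a pseudocount of 5 and from -0.14 to 0.10 with 1 tumor left out. The other ratios that crossed 0 with 1 tumor left out were Il12a to Il12b (-0.67 to 0.0078) and Il27 to Ebi3 (-0.32 to 0.0037) in GLA-SE against PBS, Il23a to Il12b (-0.13 to 0.36) and Il27 to Ebi3 (-0.25 to 0.093) in SE against PBS, and Il27 to Ebi3 in GLA-SE against SE (-0.25 to 0.10). DESeq2 gave no adjusted p for Il12b in the comparisons of GLA-SE, which was not counted as a lost call. The filter of 20 counts gave no value for Il23a and Il27, whose low counts limit their precision.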
